A study of Homo sapiens with 90 samples.

Results

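The genes described here make, conjugate and move bile acids in the liver, or regulate that work. They were the 10 genes SLC51A, SLC51B, ABCB11, ABCB4, SLC10A1, CYP7A1, CYP8B1, CYP7B1, BAAT and FGF19, out of 19774 genes with a probe set of their own on the array. Every probe set that the gene table pairs with 1 of these symbols alone was taken, whatever its level, which gave 13 of the 54613 probe sets tested. A further ABCB4 probe set that the table shares with ABCB1 was left out. No member was dropped for a low value.

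HepG2 cells, an established human hepatoma line, received 1 of the compounds fenbuconazole, imazalil and 2,4-D, or DMSO alone, for 24 h, and total RNA was measured on Affymetrix 3' expression arrays. The herbicide 2,4-D is a chlorophenoxy acid, and the fungicides fenbuconazole and imazalil are a triazole and an imidazole. There were 9 doses of each, from 0.001 up to 10 µM in steps of about 3 times. Each dose had 3 arrays, and 3 DMSO arrays served as vehicle controls for all 3 compounds. All wells, controls included, held the same final share of DMSO. Values are log2 intensities, normalized separately in each compound's set of 30 columns (27 treated arrays and a copy of each DMSO array), so each value was set only against the DMSO columns of its own set. The labels do not say whether replicate arrays came from separate cultures, so p-values measure only the spread between these arrays, which may be technical. The precision is limited by having 3 arrays in each group.

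Hepatocytes convert cholesterol to bile acids by a classic pathway that starts with CYP7A1 and by an alternative pathway that uses CYP7B1. The acids are conjugated by BAAT, pumped into bile by ABCB11, returned from the intestine and taken up again by SLC10A1. When bile acids build up they bind the nuclear receptor FXR (gene NR1H4), which is known to repress CYP7A1, in part through the hormone FGF19, and to induce the exporters. SLC51A and SLC51B are the 2 subunits of one basolateral transporter of bile acids and steroids, which works only as a pair, and both are known FXR targets.

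The listed hepatocyte and hepatoma markers were brighter than all listed markers of other cell types. They show a liver lineage and cannot tell which hepatoma line it is. All 12 hepatocyte and hepatoma markers lay above the array median in every column, with means from 10.1 (TTR) to 13.1 (ALB). The 7 blood and endothelial markers had means from 2.58 (CDH5) to 3.49 (PECAM1), the 6 mesenchymal markers from 2.16 (LUM) to 4.18 (COL1A1) and the 4 intestinal markers from 2.23 (MUC2) to 3.01 (LCT). Array medians over all probe sets lay between 2.95 and 3.15. Many bile acid genes were as dim as that. Of the 13 member probe sets, 5 lay below the array median in all 90 columns (both of ABCB11, both of CYP7B1, and CYP7A1), and 2 lay above it in all of them (SLC51B and ABCB4 207819_PM_s_at). The files carry no detection calls, so a dim probe set here is not shown to be absent or present.

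SLC51B was the member that passed the threshold, and SLC51A, on a dimmer probe set, showed no rise with imazalil. Their RefSeq promoters are shown because the 2 genes code for 1 transporter. The 2 genes were not tested against each other, and no link between these letters and the values was tested. Each run gives the 250 bases before the transcription start, 5' to 3', on build GRCh38.p14, at chr15:65045137-65045386 on the plus strand for SLC51B and at chr3:196216284-196216533 on the plus strand for SLC51A. Capitals mark AGGTCA, the half-site that nuclear receptors bind, and GCGTG, the core letters of the AHR binding site.
SLC51B: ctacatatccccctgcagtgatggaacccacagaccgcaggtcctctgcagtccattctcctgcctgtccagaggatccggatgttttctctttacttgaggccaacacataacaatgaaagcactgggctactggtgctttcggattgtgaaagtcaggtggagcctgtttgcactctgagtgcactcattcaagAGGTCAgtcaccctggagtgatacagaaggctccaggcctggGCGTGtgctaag
SLC51A: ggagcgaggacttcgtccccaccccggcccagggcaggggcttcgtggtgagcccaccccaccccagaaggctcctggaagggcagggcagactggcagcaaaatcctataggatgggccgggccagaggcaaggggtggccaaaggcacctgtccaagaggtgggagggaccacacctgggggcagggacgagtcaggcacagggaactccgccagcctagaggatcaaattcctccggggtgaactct
The SLC51B window held 1 AGGTCA on the plus strand, which begins 54 bases before the start, and 1 GCGTG, which begins 12 bases before it. The SLC51A window held neither. Among the other members in the table, AGGTCA was found once upstream of SLC10A1 and in 1 of the windows of BAAT. The inverted repeat of the half-site with 1 base between its arms is the arrangement bound by FXR with its partner RXR. Only its exact letters were searched for, GGTCA and TGACC around any base, and neither printed window held them. In the SLC51B window AGGTCA is followed by gtcacc, so the second arm reads TCACC in place of TGACC. Looser matches were not searched for. Both strands were searched. Of 35116 RefSeq promoters of the same length, 12.1% held AGGTCA, 32.2% held GCGTG and 0.00854% held the inverted repeat, whose arms are 5 bases of the half-site and so can overlap an AGGTCA match. The table had windows for 5 of the 10 member genes. A match is a description of these letters and was not tested as a binding site.

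SLC51B (probe set 230830_PM_at) rose with imazalil dose. On the imazalil arrays the DMSO columns read 4.92, 4.83 and 4.85. The arrays at 0.001 µM read 4.89, 4.82 and 5.12, those at 0.003 µM read 5.08, 4.48 and 4.40, and those at 0.01 µM read 5.11, 4.87 and 4.68. These low doses scattered on both sides of DMSO. The arrays at 0.03 µM read 5.06, 4.52 and 4.88, those at 0.1 µM read 4.89, 5.22 and 4.63, and those at 0.3 µM read 4.88, 4.97 and 4.72. Up to 0.3 µM every dose overlapped the DMSO columns. At 1 µM the arrays read 5.14, 5.34 and 5.16, at 3 µM they read 5.46, 5.33 and 5.49, and at 10 µM they read 5.49, 5.83 and 5.58. All 9 arrays from 1 µM upwards lay above all 3 DMSO columns.

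The mean of SLC51B was 5.63 ± 0.18 at 10 µM imazalil and 4.86 ± 0.05 with DMSO (SD, n = 3 each). The log2 change against DMSO was 0.35 ± 0.16 at 1 µM, 0.56 ± 0.16 at 3 µM and 0.77 ± 0.16 at 10 µM (SE), against values between -0.21 and 0.08 at the 6 doses below. The 10 µM value is a 1.70-fold level (95% interval 1.36 to 2.14). In limma's moderated test it had an unadjusted p of 5.27e-05 and an adjusted p of 0.0959 over all probe sets, so it did not pass the threshold of 0.05. With a trended and robust variance it passed, at an adjusted p of 0.035. Ordered by mean, the level was highest at 10, 3 and 1 µM, and neighbours in that order overlapped except 1 µM and the next, 0.001 µM.

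The slope of SLC51B over the 9 imazalil doses was 0.193 ± 0.035 log2 units per 10-fold dose (SE, 95% interval 0.12 to 0.26), with an adjusted p of 0.0253 in limma. The mean at 10 µM was 0.80 ± 0.13 higher than that of the 3 lowest doses (adjusted p = 0.00478), a 1.75-fold level that does not use the DMSO arrays. SLC51B was the 1 member of 13 past the threshold in each of these tests. Over all probe sets 0.0256% passed for the slope and 0.0952% for the comparison with the lowest doses. In the F test over the 9 doses SLC51B had an adjusted p of 0.106 and 0 of 13 members passed, against 0.0201% of all probe sets.

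**Figure D1:**
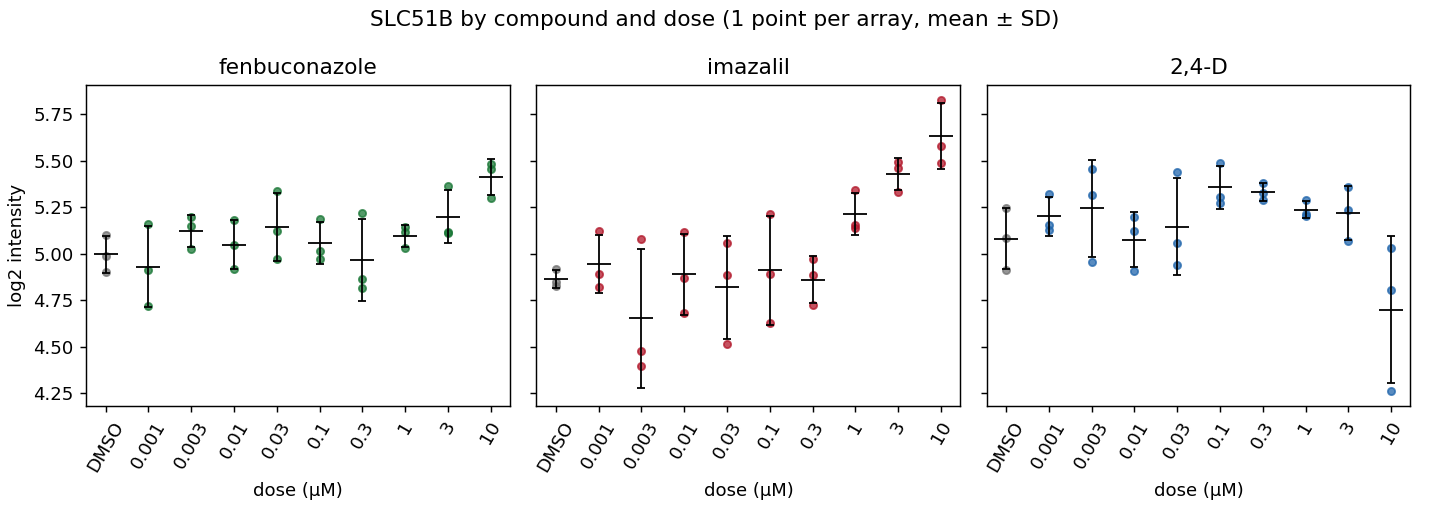
SLC51B log2 intensity (vertical axis) against dose in µM (horizontal axis, ordered categories with DMSO at the left) in the fenbuconazole, imazalil and 2,4-D sets; points are single arrays, and bars are the mean ± SD of 3 arrays. Imazalil arrays lie above all DMSO columns from 1 µM upwards, and the 2,4-D arrays at 10 µM spread from 4.26 to 5.03.

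The slope call was sensitive to single arrays and to replicates. It was lost without any 1 of 8 imazalil arrays, with adjusted p from 0.0501 to 0.12 and slopes from 0.172 to 0.201. These were replicate 2 at 0.001 µM, replicates 2 and 3 at 0.003 µM, replicates 1 and 3 at 3 µM, and replicates 1, 2 and 3 at 10 µM. Without all 3 arrays at 10 µM the slope was 0.148 (adjusted p = 0.624), and without those at 3 µM it was 0.179 (adjusted p = 0.232). The comparison with the lowest doses lost its call without replicate 2 at 10 µM, where the difference was 0.71 (adjusted p = 0.111). With all arrays of 1 replicate number left out, the slope lost its call each time, at 0.233 without replicate 1, 0.155 without replicate 2 and 0.19 without replicate 3 (adjusted p = 0.423, 0.506 and 0.175). The comparison with the lowest doses then lost its call without replicate 2 (0.65, adjusted p = 0.314) and without replicate 3 (0.78, adjusted p = 0.464), and kept it without replicate 1 (0.98, adjusted p = 0.0414). The direction was upward in every one of these fits.

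RNA quality was read from 1 control gene alone, GAPDH, and array spread was measured beside this result. The signal of that gene cannot stand for the RNA quality of all transcripts. The 3' minus 5' signal of the GAPDH control probe sets averaged -0.109 ± 0.033 at 10 µM imazalil and -0.104 ± 0.033 with DMSO, and between -0.192 and -0.14 at the 3 lowest doses. With that signal as a covariate the slope of SLC51B was 0.226 (adjusted p = 0.0362) and the difference from the lowest doses was 0.84 (adjusted p = 0.0108). With the interquartile range of each array as a covariate they were 0.186 (adjusted p = 0.0126) and 0.75 (adjusted p = 0.00892). In bulk RNA, more cells that carry a transcript and more of it per cell cannot be told apart.

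With fenbuconazole SLC51B was above DMSO at 10 µM without passing the test. The 10 µM arrays read 5.48, 5.45 and 5.30, against 5.10, 4.90 and 4.99 in the DMSO columns. The groups did not overlap. The difference was 0.41 ± 0.12 (SE), a 1.33-fold level (1.13 to 1.58), with an unadjusted p of 0.00167 and an adjusted p of 0.97 in limma. Against the 3 lowest doses it was 0.38 ± 0.10 (adjusted p = 0.372), and the slope was 0.069 ± 0.024 (adjusted p = 0.677). The other 8 fenbuconazole doses lay between -0.07 and 0.20 of DMSO, and 3 µM was the one among them with all arrays above the DMSO columns, at 5.11, 5.36 and 5.12. Neighbours in the order of group means overlapped throughout.

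With 2,4-D SLC51B stood lowest at the top dose. The 10 µM arrays read 4.81, 5.03 and 4.26, against 5.25, 4.91 and 5.08 in the DMSO columns, so the groups overlapped and replicate 3 was the lowest of all 90 columns. The difference was -0.38 ± 0.15 (SE), with an unadjusted p of 0.0169 and an adjusted p of 1.00. Without replicate 3 at 10 µM it was -0.16. The other 8 doses lay between -0.01 and 0.28 of DMSO, and all arrays at 0.1 µM (5.27, 5.31 and 5.49) and at 0.3 µM (5.29, 5.33 and 5.38) were above the DMSO columns. Against the 3 lowest doses the 10 µM mean was -0.47 ± 0.12 (unadjusted p = 0.000626, adjusted p = 0.892). No 2,4-D test of SLC51B passed the threshold.

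The compounds were then compared with each other at the same dose, on values minus the DMSO mean of each set, over 3 pairs. SLC51B at 10 µM was higher with imazalil than with 2,4-D by 1.15 ± 0.16 log2 units (SE, 95% interval 0.82 to 1.48), a 2.22-fold ratio, with an adjusted p of 7.4e-05 in limma. It was higher with fenbuconazole than with 2,4-D by 0.80 ± 0.14 (0.51 to 1.08), a 1.74-fold ratio, with an adjusted p of 0.00848. Between the azole fungicides, which differ in having an imidazole or a triazole ring among other parts, the difference of imazalil over fenbuconazole was 0.35 ± 0.15 (0.05 to 0.65, adjusted p = 0.499). That interval runs from almost no difference to a 1.57-fold one, so the pair was neither shown to differ nor shown to act alike. SLC51B was the 1 member of 13 past the threshold in the comparison of imazalil with 2,4-D, where 0.0824% of all probe sets passed, and in that of fenbuconazole with 2,4-D, where 0.0311% passed. Between imazalil and fenbuconazole 0 of 13 passed, against 0.0128%.

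These differences use the same 3 DMSO arrays in both sets, and subtraction of the DMSO means does not carry their error. For SLC51B, copies of 1 DMSO array differed by up to 0.13 between sets after centring, beside an SD between the 3 DMSO arrays of 0.0983 in the fenbuconazole set, 0.0463 in the imazalil set and 0.166 in the 2,4-D set. When the DMSO columns entered the fit as groups, so that their error counted for both sets, the difference of imazalil from 2,4-D kept an adjusted p of 0.0393 and that of fenbuconazole from 2,4-D had 1.00. The fenbuconazole difference also lost its call without replicate 1 or 2 at 10 µM fenbuconazole (0.76 with adjusted p = 0.0589, and 0.77 with adjusted p = 0.0995) and without replicate 3 at 10 µM 2,4-D (0.58, adjusted p = 0.295). It lost its call as well where replicate 1, 2 or 3 of every group was left out (0.78, 0.98 and 0.63, with adjusted p of 0.211, 0.158 and 0.381). The imazalil difference passed without any single 10 µM array, and was 0.93 (adjusted p = 0.00817) without replicate 3 at 10 µM 2,4-D. It lost its call where replicate 3 of every group was left out (0.95, adjusted p = 0.119).

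**Figure D2:**
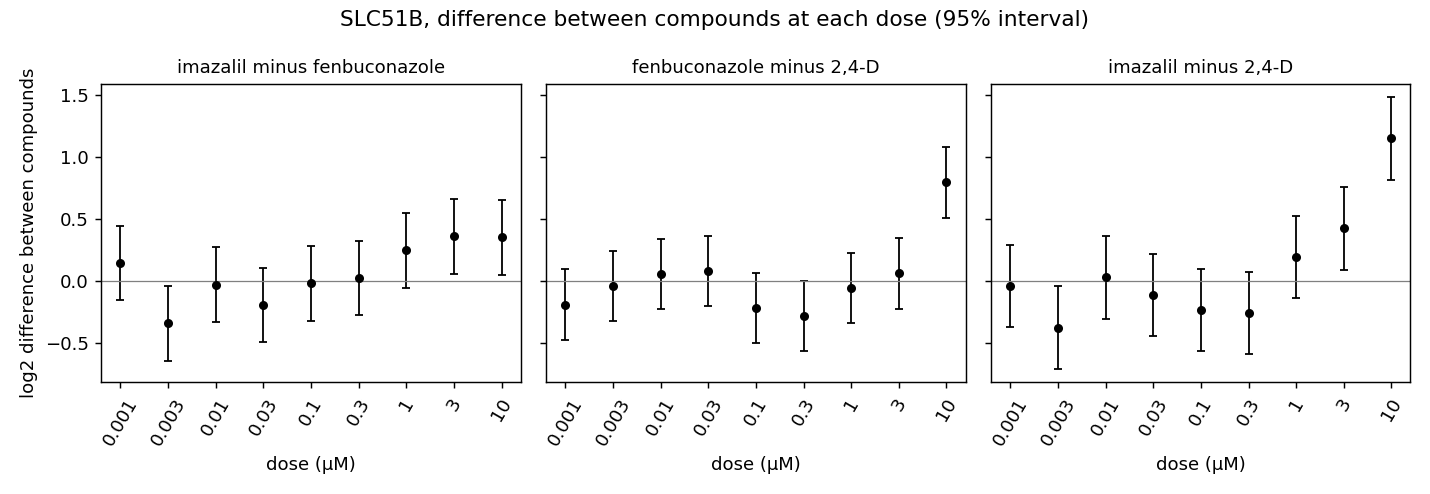
Difference in SLC51B between compounds at each dose (log2 units on values minus DMSO, vertical axis; dose in µM, horizontal axis) for imazalil minus fenbuconazole, fenbuconazole minus 2,4-D and imazalil minus 2,4-D; points are limma estimates and bars their 95% intervals. At 10 µM the estimates are 0.35, 0.80 and 1.15.

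Below 10 µM no SLC51B difference passed the adjusted threshold. At 3 µM imazalil stood 0.36 ± 0.15 above fenbuconazole (unadjusted p = 0.0193) and 0.43 ± 0.16 above 2,4-D (unadjusted p = 0.013), with adjusted p of 0.943 and 0.82. At 0.003 µM the sign was opposite, at -0.34 ± 0.15 against fenbuconazole and -0.37 ± 0.16 against 2,4-D (unadjusted p = 0.0286 and 0.0283). Over the 8 lower doses together, 0 of 104 entries of member and dose passed the adjusted threshold in any pair. The share of all entries past it was 0% for imazalil with fenbuconazole, 0.000458% for fenbuconazole with 2,4-D and 0.0016% for imazalil with 2,4-D. At an unadjusted p under 0.05 the members gave 8, 3 and 6 of 104 entries in that order of pairs, against 5.56%, 5.19% and 6.96% of all entries.

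SLC51A (229230_PM_at), the other subunit, showed no rise with imazalil, and the 2 subunits were not tested against each other. Its probe set averaged 3.75 over all columns, where array medians were 2.95 to 3.15 and SLC51B averaged 5.09. A rise may not be seen on so dim a probe set. The 10 µM imazalil arrays of SLC51A read 3.47, 3.62 and 3.97, against 3.74, 3.52 and 3.90 in the DMSO columns. The difference was -0.03 ± 0.15, with a 95% interval of -0.34 to 0.27. Its slope over imazalil doses was -0.063 ± 0.030 (unadjusted p = 0.0453, adjusted p = 0.821), downward where that of SLC51B was upward. The fenbuconazole arrays at 10 µM read 3.87, 3.87 and 4.10, against 3.70, 3.58 and 3.81 with DMSO. They lay just above the DMSO columns, by 0.25 ± 0.18 (adjusted p = 1.00).

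SLC51A had its lowest group mean in the 2,4-D set at 10 µM. Those arrays read 3.43, 3.09 and 3.60, against 3.75, 3.68 and 3.95 with DMSO, and the groups did not overlap. The difference was -0.42 ± 0.14 (unadjusted p = 0.0055, adjusted p = 1.00), and the other 8 doses lay between -0.23 and 0.05. Both transporter subunits therefore had their lowest 2,4-D mean at 10 µM, and neither passed the threshold there. Between compounds at 10 µM, SLC51A was 0.66 ± 0.17 higher with fenbuconazole than with 2,4-D (unadjusted p = 0.000383, adjusted p = 0.276) and 0.38 ± 0.15 higher with imazalil than with 2,4-D (unadjusted p = 0.0131, adjusted p = 0.512). Over the 27 treated group means, each minus the mean of its set, SLC51A and SLC51B correlated at r = 0.08, a description over groups that share sets.

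**Figure D3:**
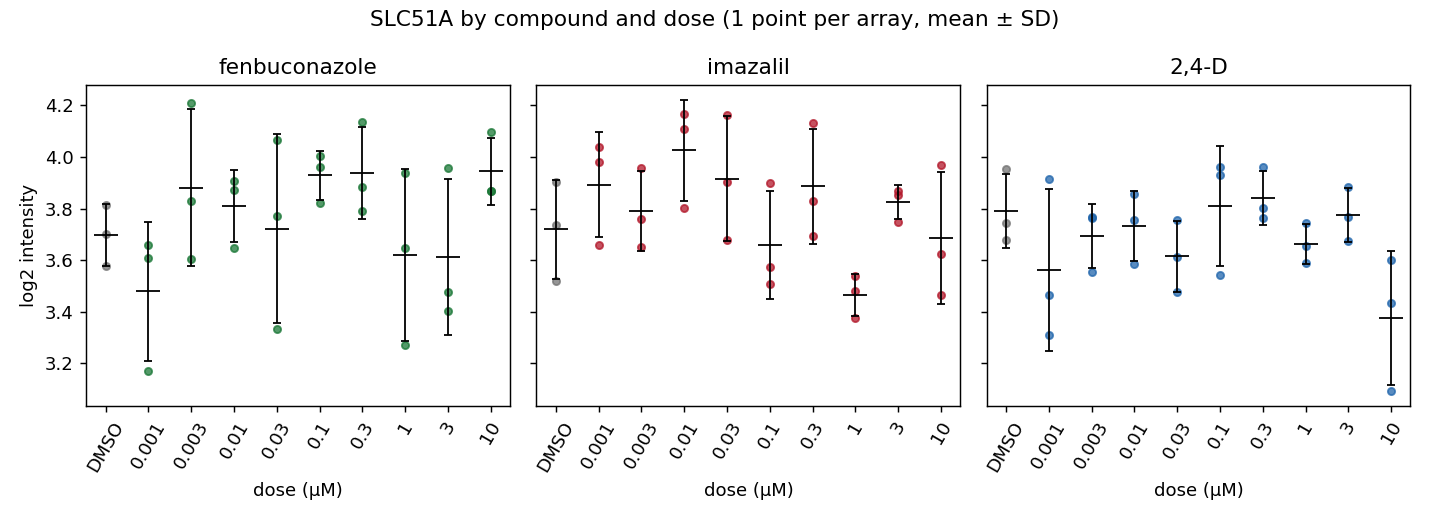
SLC51A log2 intensity (vertical axis) against dose in µM (horizontal axis, ordered categories with DMSO at the left) in the fenbuconazole, imazalil and 2,4-D sets; points are single arrays, and bars are the mean ± SD of 3 arrays. The 10 µM arrays of 2,4-D, at 3.09 to 3.60, lie below the DMSO columns of that set.

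No change of a canalicular exporter passed the threshold. ABCB4, the flippase that moves phosphatidylcholine into bile, had a mean of 6.17 ± 0.01 at 10 µM imazalil and 6.10 ± 0.10 with DMSO on probe set 207819_PM_s_at. On that probe set the changes at 10 µM were -0.07 with fenbuconazole, 0.08 with imazalil and 0.03 with 2,4-D, and no dose of any compound lay farther from DMSO than -0.17 to 0.14. Its dimmer probe set 1570505_PM_at gave 0.42 ± 0.15 at 0.3 µM 2,4-D, with arrays at 3.29, 3.69 and 3.47 against 2.98, 3.49 and 2.71 with DMSO (unadjusted p = 0.00989, adjusted p = 1.00). At that dose it was 0.58 ± 0.13 lower with imazalil than with 2,4-D, a log2 difference of -0.58 with an unadjusted p of 7.9e-05 and an adjusted p of 0.539. The probe sets did not move together there, since 207819_PM_s_at gave 6.10, 6.21 and 6.22 at that dose and 6.02, 6.30 and 6.08 with DMSO. ABCB11, the bile salt export pump, ranged from -0.17 to 0.13 over all doses and compounds on its 2 probe sets. Both lay below the array median in all 90 columns, so this range does not show that the transcript was steady. On 208288_PM_at ABCB11 was lower than DMSO at 10 µM by mean with all 3 compounds (-0.16, -0.17 and -0.09 with fenbuconazole, imazalil and 2,4-D), and none passed.

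SLC10A1, the sodium-dependent bile acid uptake carrier, read 2.77, 2.83 and 3.01 at 10 µM imazalil, against 2.87, 3.48 and 2.97 with DMSO. The groups overlapped, and the difference was -0.24 ± 0.15 (adjusted p = 0.975). Its slope over imazalil doses was -0.051 ± 0.024 (unadjusted p = 0.0418, adjusted p = 0.811). At 10 µM it was 0.32 ± 0.13 lower with imazalil than with fenbuconazole, a log2 difference of -0.32 with an unadjusted p of 0.0199 and an adjusted p of 0.495. The 10 µM changes were 0.08 with fenbuconazole and 0.01 with 2,4-D.

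The synthesis genes showed no dose response past the threshold. CYP7A1, the rate-limiting enzyme of the classic pathway, had 10 µM changes of 0.01 with fenbuconazole, 0.03 with imazalil and 0.06 with 2,4-D. Its 95% intervals at 10 µM lay within -0.20 to 0.25, at levels between 1.99 and 2.50 in all columns. CYP8B1, the hydroxylase that directs synthesis toward cholic acid, had values of 0.02, -0.05 and -0.03 in the same order of compounds. CYP7B1, the hydroxylase of the alternative pathway, ranged from -0.17 to 0.13 over all doses on its 2 probe sets. The probe sets of CYP7A1 and CYP7B1 lay below the array median in all 90 columns. Their values therefore do not show that these transcripts were steady.

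BAAT, which joins bile acids to glycine or taurine, stood above DMSO by mean at all 9 doses of each compound. The changes ran from 0.09 to 0.47 with fenbuconazole, from 0.13 to 0.26 with imazalil and from 0.09 to 0.34 with 2,4-D, with no order by dose. All 27 comparisons used the same 3 DMSO arrays, which spread from 2.96 to 3.41 in the imazalil set. At 10 µM BAAT read 3.12, 3.20 and 3.68 with fenbuconazole, against 3.27, 3.05 and 2.86 with DMSO (0.27 ± 0.19, adjusted p = 1.00). Its slopes, which do not use the DMSO arrays, did not pass. FGF19, the hormone that lowers CYP7A1, ranged from -0.20 to 0.23 over all doses, and its largest value, 0.23 ± 0.11 at 1 µM fenbuconazole, had an unadjusted p of 0.0395 and an adjusted p of 1.00. The FGF19 probe set lay below the array median in 88 of 90 columns, so its range does not show that the transcript was steady.

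**Figure D4:**
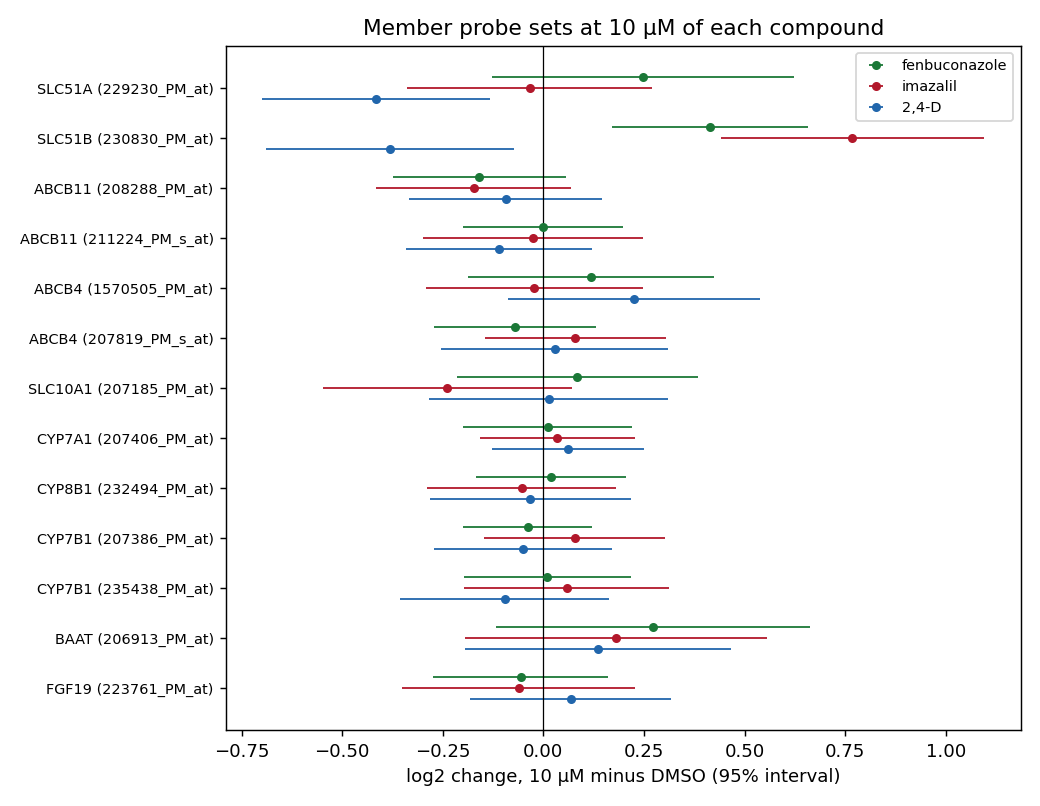
Log2 change at 10 µM minus DMSO (horizontal axis, 95% interval) of the 13 member probe sets (vertical axis) with fenbuconazole, imazalil and 2,4-D. SLC51B lies at 0.41, 0.77 and -0.38 for these compounds, and most other members lie within 0.25 of 0.

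Counted over the members, the top dose gave few entries. At 10 µM against DMSO, 0 of 13 members passed the adjusted threshold in limma with any compound, against 0.00549% of all probe sets with fenbuconazole, 0.0403% with imazalil and 0% with 2,4-D. At an unadjusted p under 0.05 there was 1 of 13 with fenbuconazole (SLC51B), 1 with imazalil (SLC51B) and 2 with 2,4-D (SLC51A and SLC51B), against 4.36%, 5.11% and 4.13% of all probe sets. All arrays lay above DMSO for 2 members with fenbuconazole (SLC51A and SLC51B), 1 with imazalil (SLC51B) and 0 with 2,4-D, against 4.7%, 5.49% and 3.71% of all probe sets. All arrays lay below DMSO for 0, 0 and 1 member (SLC51A with 2,4-D), against 4.24%, 6.18% and 3.53%. The median change of the 13 members was 0.01, -0.02 and -0.03 with fenbuconazole, imazalil and 2,4-D, beside -0.0003, -0.005 and -0.0005 over all probe sets.

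At the 8 lower doses 0 of 104 entries of member and dose passed with any compound, against 0%, 0.000229% and 0% of all entries with fenbuconazole, imazalil and 2,4-D. Unadjusted p was under 0.05 for 2 entries with fenbuconazole (BAAT at 0.01 µM and FGF19 at 1 µM), 3 with imazalil (SLC51A at 0.01 µM, SLC51B at 1 and 3 µM) and 3 with 2,4-D (BAAT at 0.03 and 1 µM, ABCB4 at 0.3 µM). The shares over all entries were 3.16%, 3.75% and 4.38%. Among these entries, the 2 of SLC51B with imazalil were at neighbouring doses.

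The imazalil slope and the imazalil comparison with the lowest doses called SLC51B, and no other slope, lowest-dose or F test called a member. For the slope, 0 of 13 passed with fenbuconazole and with 2,4-D, against 0.011% and 0% of all probe sets. For 10 µM minus the lowest doses, 0 passed with either, against 0.0256% and 0%, and in the F test 0 passed, against 0.00549% and 0%. At an unadjusted p under 0.05 the slope gave 1 member with fenbuconazole (SLC51B), 3 with imazalil (SLC51A, SLC51B, SLC10A1) and 0 with 2,4-D, against 6.06%, 6% and 4.78%. The comparison with the lowest doses gave 1 (SLC51B), 1 (SLC51B) and 2 (SLC51A, SLC51B) in the same order of compounds, against 5.13%, 6.08% and 4.21%. The F test gave 2 (SLC51B, FGF19), 2 (SLC51A, SLC51B) and 1 (SLC51B), against 3.44%, 4.31% and 5.04%. Between compounds at 10 µM there were 2 members in each pair, against 8.75% for imazalil with fenbuconazole (SLC51B, SLC10A1), 6.31% for fenbuconazole with 2,4-D and 7.79% for imazalil with 2,4-D (SLC51A and SLC51B in both).

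**Figure D5:**
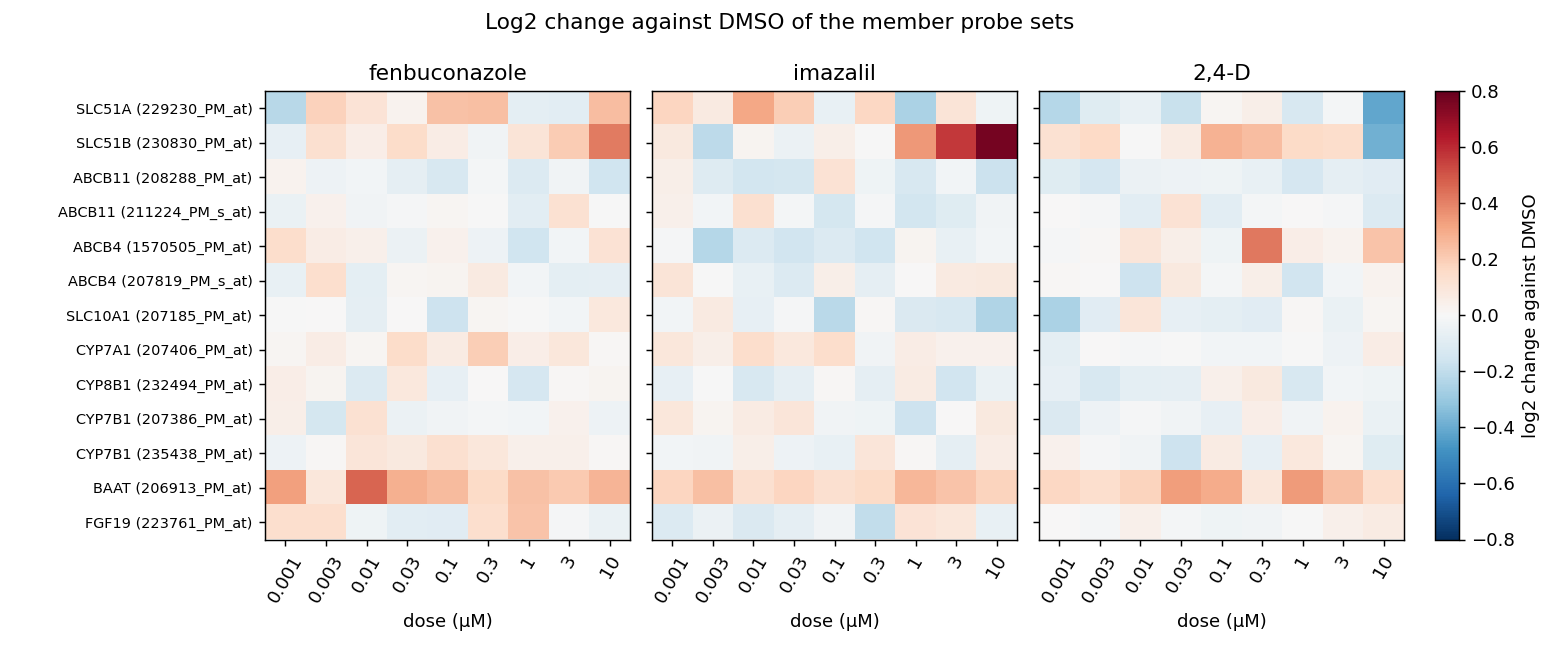
Log2 change against DMSO (colour scale) of the 13 member probe sets (rows) at each dose in µM (columns) of fenbuconazole, imazalil and 2,4-D. SLC51B with imazalil deepens from 0.35 at 1 µM to 0.77 at 10 µM, and the BAAT row is above 0 at every dose of all 3 compounds.

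The wider bile acid gene set was read from 4 lists of other genes, each gene by its brightest probe set. At 10 µM none of the measured genes passed the adjusted threshold with any compound. Among 12 other synthesis and conjugation enzymes, unadjusted p was under 0.05 and the value above DMSO for 1 with fenbuconazole, 2 with imazalil and 2 with 2,4-D, and for none below DMSO. Among 12 other transporters the counts above DMSO were 1, 2 and 3, among 11 receptors and regulators 1, 2 and 0, and among 3 detoxification enzymes 0, 1 and 0, again with none below. Over all 19774 genes, 463 were higher and 389 lower with fenbuconazole, 501 and 587 with imazalil, and 383 and 345 with 2,4-D. The counts of all 3 compounds rest on the same 3 DMSO arrays, so a gene low in those arrays can count as higher with every compound. The lists were not tested as sets. The median changes of the 4 lists lay between 0.006 and 0.14.

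SULT2A1, the sulfotransferase that sulfates bile acids and steroids, came nearest to the threshold. Its mean was 7.93 ± 0.08 at 10 µM imazalil and 7.46 ± 0.16 with DMSO, a difference of 0.47 ± 0.09 with an adjusted p of 0.0734, beside 0.22 with fenbuconazole and 0.14 with 2,4-D. At the low end of that list, CYP3A4, which hydroxylates bile acids, gave 0.02, -0.09 and -0.08 with fenbuconazole, imazalil and 2,4-D, and the high end with 2,4-D was UGT2B4 at 0.15. Among the synthesis enzymes CYP39A1, an oxysterol hydroxylase, was highest with all 3 compounds, at 0.38, 0.32 and 0.34, where the shared DMSO arrays stood at 2.44 to 2.55. The low ends were SLC27A2 at -0.23 with fenbuconazole and -0.08 with 2,4-D, and ACOT8 at -0.14 with imazalil.

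Among the transporters the high ends were ABCC2, the canalicular exporter of bilirubin conjugates, at 0.24 with fenbuconazole, ATP8B1, a phospholipid flippase, at 0.43 ± 0.22 with imazalil, and SLCO1B1, a hepatic uptake carrier, at 0.30 with 2,4-D. The low ends were ATP8B1 at -0.13 with fenbuconazole, SLCO1B3 at -0.15 with imazalil and SLC10A2 at -0.12 with 2,4-D. ABCC2 had about the same value with each compound, at 0.24, 0.25 and 0.23, against the same DMSO arrays. Among the receptors and regulators the high ends were KLB, the FGF19 co-receptor, at 0.20 with fenbuconazole, PPARA at 0.26 with imazalil and NR5A2 at 0.14 with 2,4-D. The low ends were FGFR4 at -0.05, GPBAR1 at -0.11 and VDR at -0.14 in the same order. None of these passed. NR1H4, HNF4A, NR1I2, HSD3B7, SCP2, UGT2B7 and UGT1A3 were not analysed here.

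The genes whose pattern was most like that of SLC51B were found by correlation over the 27 treated group means, each minus the mean of its set. The 5 highest of all genes were CAVIN2 (r = 0.83), PDCD11 (r = 0.80), CYP1A1 (r = 0.79), VPS8 (r = 0.78) and ALAS1 (r = 0.78). These r values describe groups that share arrays of 1 set and were picked as the highest. At 10 µM CYP1A1, the dioxin-inducible cytochrome P450, gave 3.01 with imazalil (adjusted p = 2e-09), 1.65 with fenbuconazole and 0.04 with 2,4-D. ALAS1, the first enzyme of haem synthesis, gave 0.52 with imazalil (adjusted p = 0.0248), 0.21 with fenbuconazole and 0.03 with 2,4-D. CAVIN2, a coat protein of caveolae, gave 0.41, 0.18 and -0.02 in order of imazalil, fenbuconazole and 2,4-D, and did not pass. In the same order PDCD11 gave 0.18, 0.09 and -0.05, and VPS8 gave 0.26, 0.19 and 0.08. Neither passed with imazalil, at an adjusted p of 0.975 and 0.967 in limma. Of the other members, SLC10A1 was farthest from 0 in this measure at r = -0.44, and ABCB4 was the highest at 0.19.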

How the data were processed

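HepG2 RNA was hybridised to Affymetrix arrays. The authors deposited log2 intensities per probe set, and the processing notes in the labels name RMA and Partek, whose settings are not given in the sources used here. RMA, in its usual form, scales the probe values of all arrays of a set to 1 distribution, so values are relative within a set and a shift of all genes would not be seen. The 90 columns come from 84 different arrays, because each of the 3 DMSO arrays is in all 3 sets. Control probe sets (102 of 54715) were left out. Gene symbols came from the platform annotation.

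Each set was fitted with limma 3.58.1 (R 4.3.3) over 54613 probe sets, with Benjamini-Hochberg adjustment over all of them, a threshold of 0.05 and two-sided tests. Contrasts were each dose minus DMSO, an F test over 9 doses, the slope over the treated arrays, 10 µM minus the 3 lowest doses, and compounds against each other on values minus the DMSO mean. No low-value filter was used. The scripts were tested on simulated data. Members and lists were chosen with earlier results of these data known. All member probe sets are named, with the genes of other lists past the threshold or, where none passed, the highest and lowest at 10 µM, and the 5 genes most correlated with SLC51B. Alternatives covered the variance model, renormalization, covariates, the replicate block and leaving out arrays.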

Additional observations from a re-analysis of the deposited data

Results flagged for a closer look

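SLC51B at 10 µM differed between compounds in a test of the difference itself, on log2 values minus the DMSO mean of each set. The difference was 1.15 for imazalil minus 2,4-D and 0.796 for fenbuconazole minus 2,4-D. The same 3 DMSO arrays stood behind every compound, and the fenbuconazole difference did not pass when the DMSO columns entered the fit as groups.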

How the results depend on the processing

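Only 3 arrays stood behind each group, dim probe sets have no detection calls, and the shared DMSO arrays tie the comparisons together. All values are log2. The GAPDH covariate, the slopes without a dose, the single arrays left out of slopes and compound differences, and the DMSO columns as groups were chosen after seeing the data. Under a trended and robust variance 1 member (SLC51B, 0.768) passed at 10 µM imazalil against DMSO, and 1 in the imazalil F test. With array spread as a covariate 2 members passed between fenbuconazole and 2,4-D, CYP7A1 with fenbuconazole was -0.00394 and SLC10A1 with 2,4-D was -0.0024. After quantile normalization CYP7B1 235438_PM_at with fenbuconazole was -0.000708. The SLC51B imazalil slope was 0.148 without the 10 µM arrays and 0.179 without the 3 µM arrays, and the 2,4-D slope was 0.025 without the 10 µM arrays. With DMSO columns as groups the fenbuconazole minus 2,4-D difference of 0.796 did not pass. The cause was not tested.

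Leaving out replicates or single arrays moved the SLC51B imazalil slope between 0.155 and 0.233, its difference from the lowest doses between 0.653 and 0.975, fenbuconazole minus 2,4-D between 0.577 and 0.977 and imazalil minus 2,4-D between 0.931 and 1.32. With whole replicates left out, members past the threshold were 0 to 0, 0 to 1, 0 to 0 and 0 to 1 in that order. Other members crossed 0 at 10 µM against DMSO. With fenbuconazole ABCB11 211224_PM_s_at ran from -0.12 to 0.10, ABCB4 1570505_PM_at from -0.11 to 0.27, ABCB4 207819_PM_s_at from -0.16 to 0.0047, SLC10A1 from -0.073 to 0.28, CYP7A1 from -0.055 to 0.099, CYP8B1 from -0.11 to 0.13, CYP7B1 207386_PM_at from -0.11 to 0.039, CYP7B1 235438_PM_at from -0.030 to 0.037, BAAT from -0.000122 to 0.49 and FGF19 from -0.11 to 0.0077. With imazalil SLC51A ran from -0.18 to 0.083, ABCB11 211224_PM_s_at from -0.18 to 0.11, ABCB4 1570505_PM_at from -0.10 to 0.14, CYP7A1 from -0.010 to 0.072, CYP8B1 from -0.18 to 0.073 and FGF19 from -0.15 to 0.0053. With 2,4-D ABCB11 208288_PM_at ran from -0.21 to 0.071, ABCB11 211224_PM_s_at from -0.26 to 0.037, ABCB4 207819_PM_s_at from -0.11 to 0.15, SLC10A1 from -0.13 to 0.21, CYP7A1 from -0.055 to 0.15, CYP8B1 from -0.058 to 0.000343, CYP7B1 207386_PM_at from -0.12 to 0.032, BAAT from -0.025 to 0.33 and FGF19 from -0.030 to 0.16.

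Over all alternatives, the probe sets called of all tested ran, with fenbuconazole, from 0 to 14 at 10 µM (3 in the reported fit), 0 to 11 for the slope (6), 0 to 28 against the lowest doses (14) and 0 to 16 for the F test (3). With imazalil they ran from 3 to 38 (22), 0 to 36 (14), 4 to 75 (52) and 1 to 32 (11), and with 2,4-D from 0 to 0, 0 to 1, 0 to 4 and 0 to 5 (0 in each reported fit). Between compounds they ran from 0 to 11 (7) for imazalil with fenbuconazole, 1 to 54 (17) for fenbuconazole with 2,4-D and 10 to 112 (45) for imazalil with 2,4-D. Arrays of the same number had a median correlation of deviations of 0.039, 0.021 and 0.051 in the fenbuconazole, imazalil and 2,4-D sets, with single pairs from -0.335 to 0.393, so the numbers were not taken to pair whole sets. Between 10 µM and DMSO the pairs ran from 0.0775 to 0.342, -0.122 to 0.135 and 0.162 to 0.372 in that order, all over 0.1 with 2,4-D. The labels carry a code equal to the replicate number, whose meaning is not stated. With the replicate block no SLC51B call changed, with adjusted p of 1.00 at 10 µM 2,4-D against DMSO, 0.086 at 10 µM imazalil against DMSO, 0.0283 for the slope and 0.0047 for fenbuconazole minus 2,4-D (0.796).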
